A study of Mus musculus with 6 samples.

Results

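The genes described here encode the secreted WNT ligands, their frizzled and LRP receptors, the R-spondins with their LGR receptors, the secreted antagonists, and a set of intracellular, nuclear and target genes of the pathway. They were taken by symbol from the annotation of the array platform: every gene of the Wnt, Fzd, Sfrp, Dkk and Rspo families, Lgr4, Lgr5 and Lgr6, and named further components such as Lrp6, Axin2 and Ctnnb1. This gave 62 of the 19939 genes tested, each read from a probe set that carries no other gene's symbol. Fzd10os, an antisense transcript beside Fzd10, came in through its symbol. Tcf7 was not analysed here.

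WNT proteins are lipid-modified growth factors that bind frizzled receptors. With the co-receptors LRP5 and LRP6 they stop the destruction of β-catenin, which then works with TCF and LEF proteins on target genes, while other WNTs act through cell polarity or calcium. R-spondins bound to LGR receptors keep frizzled on the cell surface, and SFRP and DKK proteins hold the pathway back outside the cell. In mesenchyme, the tissue from which fibroblasts derive, WNT signals are known for limb, bone and connective tissue patterning.

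Cultured mouse embryonic fibroblasts of 2 lines were compared on 3 arrays each. The tetraploid line, 174, is labelled with abnormal DNA contents and is called transformed in the series title. The diploid line, FW, is labelled as the normal control, and both were grown to near confluence in the same medium with serum. The labels give neither strain, embryo age nor the origin of the tetraploid state, and whether each sample was its own culture is not stated. Each ploidy is 1 line, so that effects of ploidy, of transformation and of the line itself cannot be told apart, and p-values measure only the spread between these samples, which may be technical.

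All values are log2 levels as deposited, and a difference is the tetraploid minus the diploid mean. A level belongs to its own probe set and is not set against that of another gene. On each array a background level was taken as the 95th percentile of 1027 olfactory receptor genes, which have little known activity in fibroblasts. It lay between 7.18 and 7.41 in the tetraploid and between 7.01 and 7.26 in the diploid samples. Of 16 fibroblast markers, 14 were above background on all 6 arrays, 6 fell and 0 rose in the tetraploid line (37.5% called, against 13.8% of all genes). Fap, which encodes a fibroblast surface protease, had 0.01, 0.03 and 0.01 in the tetraploid samples and 9.42, 9.43 and 9.10 in the diploid samples. The part of these marker differences in the results that follow was not tested. Of 15 macrophage markers 3 fell and 0 rose (20% called). Their mean level was 3.95 to 4.28 in the tetraploid samples and 4.75, 6.54 and 7.35 in diploid samples 1 to 3. Lyz1, Lyz2 and C1qa had differences of -6.04, -5.71 and -2.98. Of the 15 markers, 6 were at or below background on all 6 arrays, among them Adgre1, which defines macrophages. Of 10 endothelial markers 3 fell and 1 rose (40% called, means 6.10 to 6.37 against 7.20 to 7.29). Flt1 had a difference of -4.47. Of the 10 markers, 5 were at or below background on all 6 arrays, among them Pecam1, Cdh5, Tek and Tie1. Arrays read a mixture of RNA, so fewer cells of a type and less RNA per cell cannot be told apart.

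More WNT genes fell than rose in the tetraploid line. The limma test, adjusted over all genes, called 11 members as fallen and 2 as risen at an adjusted p below 0.05, and 49 did not pass. Over all genes the same test called 13.8%, with 7.75% fallen and 6.08% risen. Among the members the shares were 21%, 17.7% and 3.23%. The members were chosen with earlier results of these data known, so these shares are descriptions. The 3 values of one line lay apart from the 3 of the other in 29 members (46.8%, against 37.3% of all genes). In 22 of these the tetraploid samples were lower (35.5%, against 18.2% of all genes), and in 7 they were higher (11.3%, against 19.1%). The median difference was -0.18 over the members and 0.07 over all genes. Much of the family lay low: 22 members were above background on all 6 arrays, and 17 were at or below it on all 6. Raised to background, the members had a median of 0.05, since genes below background then carry only the difference between background levels, 0.12. Of the 13 called members, 8 were above background in all samples of at least 1 line. They are the ligand genes Wnt5a, Wnt9a and Wnt16, the receptor genes Fzd7 and Lgr5, Nkd2, Ccn4 and Sfrp2. Without 1 diploid array the number of fallen members was 7, 6 and 6 (samples 1, 2 and 3 in turn). Risen members numbered 0 to 1 in every fit without 1 array.

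**Figure D1:**
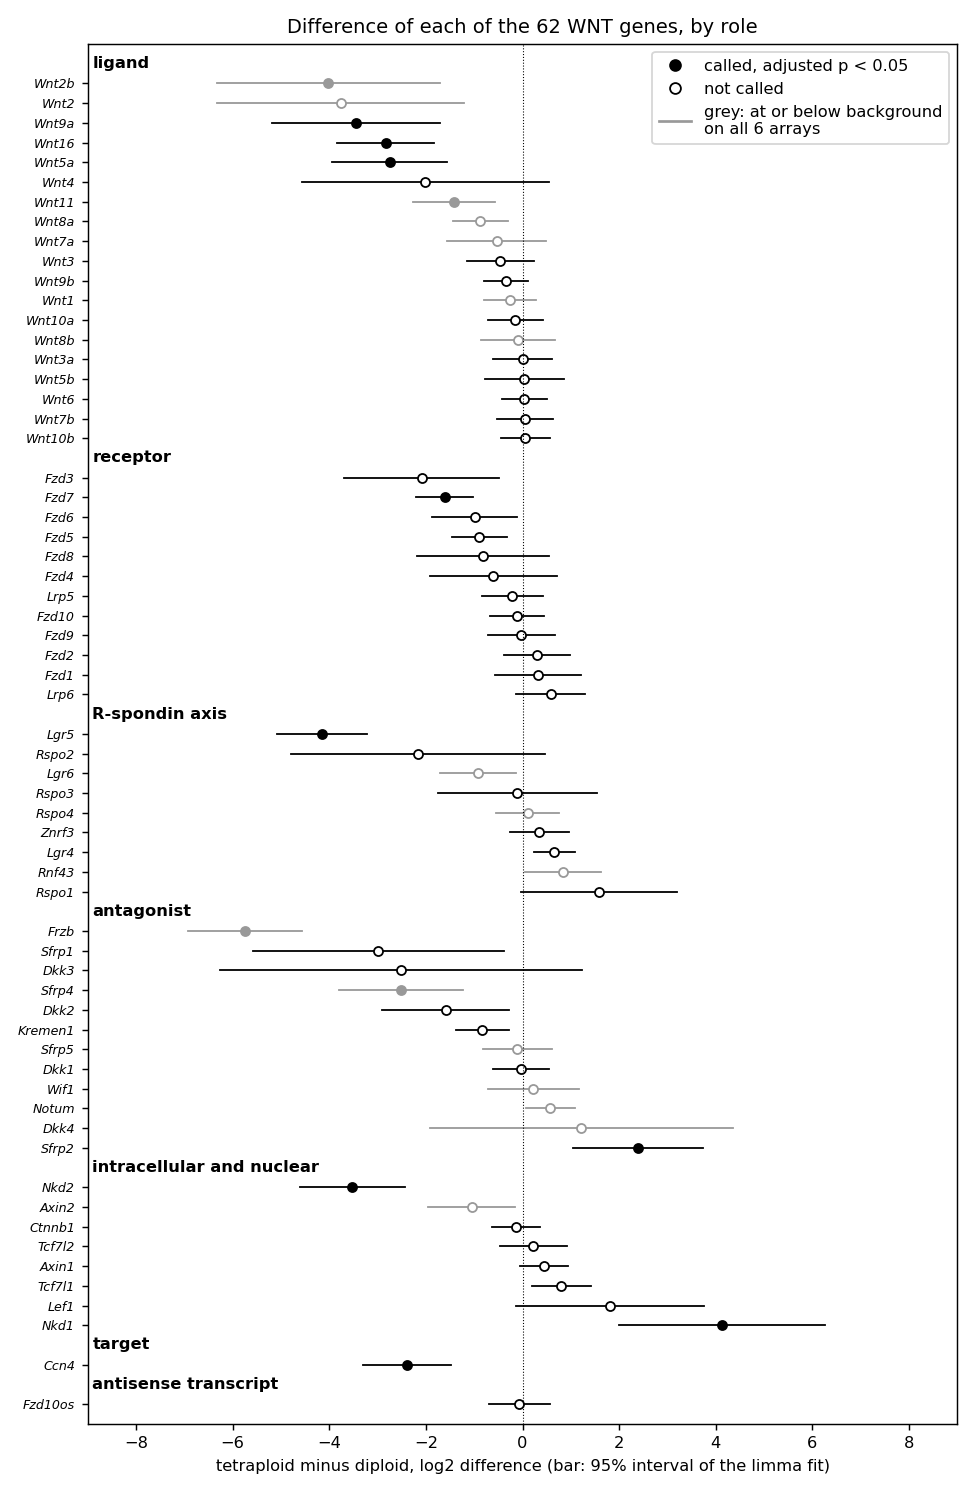
Each row is 1 of the 62 WNT genes, grouped by role, with its tetraploid minus diploid log2 difference on the x axis and the 95% interval of the limma fit as a bar. Filled points passed the test at an adjusted p below 0.05, and grey marks genes at or below background on all 6 arrays. Most filled points lie left of 0, and only Sfrp2 and Nkd1 lie right of it.

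Among 19 ligand genes there were 5 falls and 0 rises, and 14 did not pass (median difference -0.46). Over all genes 7.75% fell and 6.08% rose. Wnt5a, a ligand known for signalling without β-catenin in migrating and growing mesenchyme, stood at 8.64, 6.69 and 8.44 in tetraploid samples 1 to 3, against 10.83, 10.47 and 10.72 in diploid samples 1 to 3. All tetraploid values lay below all diploid ones, and tetraploid sample 2 lay below its background level. The difference was -2.75 (SE 0.51, 95% interval -3.95 to -1.55), a 6.72-fold lower level (limma adjusted p = 0.0168). Without tetraploid sample 2 the level was 4.38-fold lower. Wnt9a, a ligand gene known from joint formation, had 5.46, 2.99 and 6.04 in the tetraploid samples, all below background, against 8.51, 8.12 and 8.21 in the diploid samples. It was at least 1.99-fold lower (difference as deposited -3.45, SE 0.73, limma adjusted p = 0.0262). The deposited difference was -2.53 without tetraploid sample 2 and -4.06 without tetraploid sample 3. A lower bound of this kind is computed with every value raised to its array's background level. Wnt16, a ligand gene known for its part in cortical bone, had 4.99, 3.87 and 5.57 in the tetraploid and 7.45, 7.90 and 7.57 in the diploid samples. The diploid values lay just above background, so that the drop was only bounded, at 1.28-fold or more (limma adjusted p = 0.00931, and 0.165 with values raised to background). Leaving out any 1 diploid sample ended the calls of Wnt5a (adjusted p 0.0563 to 0.0594) and Wnt9a (0.0785 to 0.0838).

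The remaining called ligand genes, Wnt2b and Wnt11, were at or below background on all 6 arrays. Wnt2b lay at 0.06, 3.41 and 4.21 in the tetraploid samples and at 6.51, 6.57 and 6.65 in the diploid samples (limma adjusted p = 0.0387). Its difference of -4.02 was -2.77 without tetraploid sample 1 and -4.84 without tetraploid sample 3. For Wnt11 the values were 5.80, 4.60 and 5.62 against 7.05, 6.84 and 6.41 (limma adjusted p = 0.0443). No fold is given for either, and both calls ended with values raised to background (adjusted p 0.463) and without tetraploid sample 2 or any 1 diploid sample (adjusted p 0.0735 to 0.109 for Wnt2b and 0.0697 to 0.136 for Wnt11). That of Wnt11 also ended without tetraploid sample 3 (adjusted p 0.0695). Wnt2, at 0.00, 4.37 and 3.98 in the tetraploid and 6.53, 6.17 and 6.94 in the diploid samples, also lay below background and did not pass (limma adjusted p = 0.0635).

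Other ligand genes were measured above background on all 6 arrays and did not pass: Wnt3a, Wnt5b, Wnt6, Wnt9b, Wnt10a and Wnt10b. Wnt6 averaged 8.99 ± 0.09 in the tetraploid samples and 8.95 ± 0.19 in the diploid samples (SD, n = 3 each), a difference of 0.04 (95% interval -0.43 to 0.51). Wnt10b had a difference of 0.06 (-0.44 to 0.56). For Wnt3a, a strong activator of β-catenin signalling, it was 0.00 (-0.61 to 0.61). Wnt5b, the closest relative of Wnt5a, averaged 8.36 ± 0.57 in the tetraploid and 8.33 ± 0.37 in the diploid samples (difference 0.04, interval -0.78 to 0.85). These intervals leave room for changes of up to about that size in either direction, but not for a drop like that of Wnt5a. Wnt9b had a difference of -0.34 with no overlap between the lines (limma adjusted p = 0.29), and Wnt10a one of -0.15. Wnt3, Wnt4 and Wnt7b were above background on some arrays, and Wnt1, Wnt2, Wnt7a, Wnt8a and Wnt8b on none. Wnt4 was the only member with more than 1 probe set. The probe set used had 5.94, 6.75 and 2.31 against 6.60, 6.74 and 7.70, while the other had 4.57, 0.00 and 4.36 against 7.13, 6.63 and 7.31 (tetraploid against diploid samples), and the mean of both passed the test.

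Among the 12 frizzled and LRP receptor genes 1 fell and 11 did not pass (median difference -0.41, with 13.8% of all genes called). That call is a single result and not a result about the receptors as a group. Fzd7, a receptor used by several WNT ligands, had 9.73, 9.03 and 9.60 in the tetraploid samples and 11.00, 11.25 and 10.95 in the diploid samples. The lines did not overlap, and all 6 values were well above background. The difference was -1.61 (SE 0.25, 95% interval -2.20 to -1.03), a 3.06-fold lower level (limma adjusted p = 0.00988), and the call held in all 6 fits without 1 array (adjusted p 0.0159 to 0.0496). Of the others, Fzd1, Fzd2, Fzd10, Lrp5 and Lrp6 were above background on all 6 arrays and did not pass. Their differences were 0.33 for Fzd1, -0.11 for Fzd10, -0.21 for Lrp5 and 0.58 for Lrp6, and Fzd2, a relative of Fzd7 in sequence, had one of 0.30 (95% interval -0.39 to 0.98). Fzd3, Fzd5 and Fzd6 were lower in each tetraploid sample than in any diploid sample but did not pass (limma adjusted p 0.0891, 0.053 and 0.128). Fzd5 was above background on 1 diploid array only, and with values raised to background its difference of -0.89 became 0.03. Fzd3 was above background on 1 tetraploid array, and its difference of -2.09 became -0.38. Fzd6, a frizzled known from hair and skin polarity, had 6.94, 7.84 and 8.43 in the tetraploid and 8.70, 8.81 and 8.69 in the diploid samples, and passed with values raised to background (adjusted p 0.0333). Fzd4 and Fzd8 overlapped, and Fzd9 and the antisense Fzd10os lay around background in both lines.

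In the R-spondin group of 9 genes 1 fell and 8 did not pass (median difference 0.10, with 13.8% of all genes called). Here too the call is not a result about the group. Lgr5, an R-spondin receptor known as a stem cell marker in gut and hair, had 4.21, 4.02 and 4.53 in the tetraploid samples, all below background. In diploid samples 1 to 3 it had 7.67, 8.33 and 9.19. It was at least 2.16-fold lower (difference as deposited -4.15, SE 0.39, limma adjusted p = 0.00196, called in all 6 fits without 1 array). The diploid samples had the same order for Lgr5 as for the mean of the macrophage markers, and the part of this in the result was not tested. Lgr4, the more widely expressed relative, had 10.01, 10.09 and 10.11 in the tetraploid and 9.40, 9.35 and 9.48 in the diploid samples. The spread within a line was small and the lines did not overlap, but the difference of 0.66 (95% interval 0.24 to 1.08) just missed the threshold (limma adjusted p = 0.0534). It passed with values raised to background (adjusted p 0.00439), which left its own values unchanged. In the fits without 1 array it did not pass (adjusted p 0.0613 to 0.192), nor with the replicate number as a block (0.135). The ligase genes Znrf3 and Rnf43, whose products remove frizzled from the surface, did not pass (limma adjusted p 0.424 and 0.149), and Rnf43, Rspo4 and Lgr6 were at or below background on all 6 arrays. Rspo1 had 6.84, 7.48 and 6.81 in the tetraploid and 5.77, 3.87 and 6.75 in the diploid samples, with only 1 value above its background level.

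Among the 12 antagonist genes 1 rose, 2 fell and 9 did not pass (median difference -0.47, with 13.8% of all genes called). Sfrp2, which encodes a secreted frizzled-related protein made by many mesenchymal cells, had 10.17, 12.40 and 10.98 in the tetraploid and 8.74, 8.30 and 9.32 in the diploid samples. All 6 values were above background and the lines did not overlap. The difference was 2.39 (SE 0.57, 95% interval 1.05 to 3.74), a 5.26-fold higher level (limma adjusted p = 0.0363), and 3.45-fold without tetraploid sample 2. The call ended without tetraploid sample 2 or 3 (adjusted p 0.0544 and 0.0765) and without diploid sample 1, 2 or 3 (0.103, 0.12 and 0.0687). Frzb, also of the frizzled-related family and known from cartilage, had 0.60, 0.04 and 2.05 in the tetraploid and 6.46, 6.97 and 6.48 in the diploid samples. Its deposited difference of -5.74 (limma adjusted p = 0.00136) was the largest of all members, yet all 6 values lay below background, as did those of Sfrp4. Sfrp4 had 5.16, 3.15 and 3.97 against 5.99, 7.18 and 6.63, tetraploid against diploid samples (limma adjusted p = 0.0276). With values raised to background neither was called (adjusted p 0.463). The call of Sfrp4 also ended without tetraploid sample 2 or 3 or diploid sample 2 or 3 (adjusted p 0.0653 to 0.095).

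Sfrp1, of the same family as Sfrp2, had lower values in most tetraploid samples. It had 6.85, 4.20 and 8.82 in the tetraploid and 8.60, 10.30 and 9.92 in the diploid samples, and with a tetraploid SD of 2.32 it did not pass (limma adjusted p = 0.122; 0.0237 with values raised to background). Dkk1, which blocks LRP6 and is itself a known target of the pathway, averaged 8.51 ± 0.08 in the tetraploid and 8.54 ± 0.38 in the diploid samples (SD, n = 3 each; difference -0.03, 95% interval -0.60 to 0.55). Kremen1, a receptor for DKK proteins, had 8.11, 8.70 and 8.59 in the tetraploid and 9.34, 9.12 and 9.43 in the diploid samples. These did not overlap, and the difference of -0.83 just missed the threshold (limma adjusted p = 0.0594). It passed with values raised to background (adjusted p 0.00817), which left its own values unchanged, but in no fit without 1 array (0.0757 to 0.17). Dkk4, Wif1, Notum and Sfrp5 stayed at or below background on all 6 arrays.

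The intracellular and nuclear genes, 8 in number, showed 1 rise, 1 fall and 6 without a call (median difference 0.34, with 13.8% of all genes called). Nkd2, which encodes a Dishevelled-binding inhibitor, had 3.46, 4.07 and 5.31 in the tetraploid samples, below background, against 7.84, 7.55 and 8.01 in the diploid samples. It was at least 1.42-fold lower (difference as deposited -3.52, SE 0.46, limma adjusted p = 0.00579), and the call held in all 6 fits without 1 array. Its relative Nkd1 had 6.97, 6.57 and 8.34 in the tetraploid and 1.78, 2.52 and 5.21 in the diploid samples. The deposited difference of 4.13 was 3.43 without diploid sample 1 and 5.15 without diploid sample 3. Only tetraploid sample 3 was above background, so that no fold is given (limma adjusted p = 0.0285). With values raised to background the difference was 0.48, against 0.12 from the background levels alone (limma adjusted p 0.289). Among the fits without 1 array, the call as deposited held only without diploid sample 3 (adjusted p 0.0111). The adjusted p was 0.061 to 0.0965 in the other 5. Ctnnb1, the gene of β-catenin itself, averaged 11.64 ± 0.23 in the tetraploid and 11.78 ± 0.12 in the diploid samples (SD, n = 3 each; difference -0.13, 95% interval -0.62 to 0.36).

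Axin2 and Lef1, members often used as readouts of β-catenin activity, did not pass with the values as deposited. Axin2, a feedback inhibitor that the pathway switches on, was at or below background on all 6 arrays, with 4.84, 4.47 and 4.42 in the tetraploid and 4.92, 5.56 and 6.40 in the diploid samples. Lef1, a DNA-binding partner of β-catenin, had 9.43, 6.02 and 8.73 in the tetraploid and 6.59, 5.80 and 6.37 in the diploid samples. The high values came from tetraploid samples 1 and 3, while tetraploid sample 2 lay within the diploid range (limma adjusted p = 0.198; 0.0131 without tetraploid sample 2 and 0.0381 with values raised to background). Tcf7l1, which mostly represses, had a difference of 0.81 with no overlap between the lines (limma adjusted p = 0.0876). It passed with values raised to background (adjusted p 0.0183), which left its own values unchanged, but in no fit without 1 array (0.0578 to 0.242). Tcf7l2 had a difference of 0.22 and Axin1 one of 0.45.

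Ccn4, a matricellular protein gene first known as induced by WNT1, had 9.29, 8.90 and 10.42 in the tetraploid samples and 11.98, 11.90 and 11.88 in the diploid samples. The diploid samples were tightly grouped (SD 0.05) and lay above every tetraploid sample. The difference was -2.38 (SE 0.39, 95% interval -3.30 to -1.47), a 5.22-fold lower level (limma adjusted p = 0.0115), called in all 6 fits without 1 array (adjusted p 0.0031 to 0.0478).

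**Figure D2:**
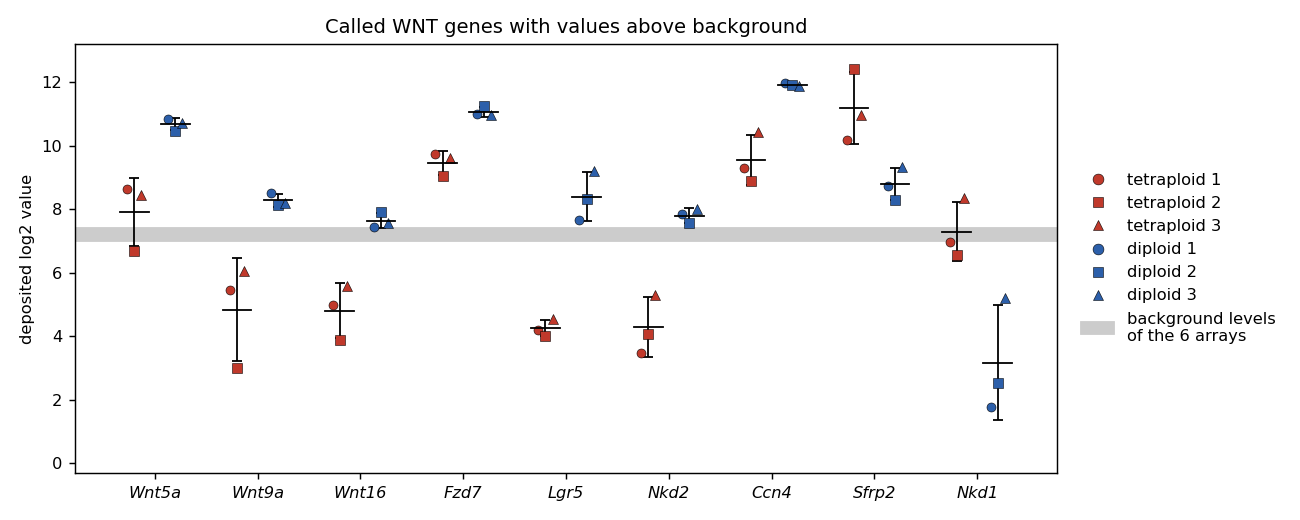
Deposited log2 values (y axis) of the 9 called WNT genes with at least 1 value above background, with tetraploid samples in red on the left and diploid samples in blue on the right of each gene. Lines and bars give mean and SD of 3 samples, and the grey band spans the background levels of the 6 arrays. Tetraploid values of Wnt9a, Wnt16, Lgr5 and Nkd2 lie below the band, while those of Fzd7, Ccn4 and Sfrp2 lie above it.

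Promoters are shown for called members above background in all samples of at least 1 line, where a sequence was matched. No sequence was matched for Wnt5a, Lgr5 and Ccn4. The pathway acts on DNA through TCF and LEF proteins, and whether the called genes share such control was not tested. RefSeq promoter sequences of the mouse build GRCm38.p6 were matched by gene ID for 39 of the 62 members, which have 48 annotated starts. The 250 bases before the start were searched on both strands for the TCF/LEF letters CTTTGAA, also with AT, TA or TT as the last pair of letters, and for the GC box GGGCGG. The lines below run 5′ to 3′ along the gene, end at the base before the start, and carry both motifs in capitals. They are from chr1:59481897-59482146 (plus strand) for Fzd7, chr11:59306680-59306929 (plus strand) for Wnt9a, chr6:22287977-22288226 (plus strand) for Wnt16, chr13:73847632-73847881 (minus strand) for Nkd2 and chr3:83766071-83766320 (plus strand) for Sfrp2, which rose. Nkd1, the other member that rose, is not shown.
Fzd7: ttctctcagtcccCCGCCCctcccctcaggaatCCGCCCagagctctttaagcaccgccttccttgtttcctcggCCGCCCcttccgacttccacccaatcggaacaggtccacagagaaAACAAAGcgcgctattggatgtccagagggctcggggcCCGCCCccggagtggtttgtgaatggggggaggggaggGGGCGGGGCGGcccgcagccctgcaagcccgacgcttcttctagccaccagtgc
Wnt9a: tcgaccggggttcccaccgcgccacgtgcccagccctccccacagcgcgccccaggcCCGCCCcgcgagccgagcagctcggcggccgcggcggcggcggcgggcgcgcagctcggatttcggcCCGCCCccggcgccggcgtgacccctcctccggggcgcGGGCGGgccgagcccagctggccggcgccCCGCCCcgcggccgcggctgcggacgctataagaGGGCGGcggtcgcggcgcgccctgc
Wnt16: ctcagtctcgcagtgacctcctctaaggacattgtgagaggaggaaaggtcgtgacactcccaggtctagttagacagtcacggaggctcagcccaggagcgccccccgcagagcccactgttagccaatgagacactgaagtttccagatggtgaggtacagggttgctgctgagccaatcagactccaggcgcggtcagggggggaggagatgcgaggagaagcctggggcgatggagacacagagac
Nkd2: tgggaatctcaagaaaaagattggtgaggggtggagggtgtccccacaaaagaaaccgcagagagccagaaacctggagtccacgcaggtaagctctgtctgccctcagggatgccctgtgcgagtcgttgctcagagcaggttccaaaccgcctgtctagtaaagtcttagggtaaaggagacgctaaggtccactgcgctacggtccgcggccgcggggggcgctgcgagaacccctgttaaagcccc
Sfrp2: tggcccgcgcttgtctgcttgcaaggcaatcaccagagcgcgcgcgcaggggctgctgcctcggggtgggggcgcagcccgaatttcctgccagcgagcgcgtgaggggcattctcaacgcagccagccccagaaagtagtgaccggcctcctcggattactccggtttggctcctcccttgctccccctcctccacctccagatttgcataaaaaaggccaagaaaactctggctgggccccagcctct

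The Fzd7 window held 1 TCF/LEF match, AACAAAG on the reverse strand starting 130 bases before the start, and 6 GC boxes, of which the last 2 share a base. The Wnt9a window held 5 GC boxes and 0 TCF/LEF matches, with 84.4% G and C. Neither motif was found in the windows of Wnt16, Nkd2 and Sfrp2. Of the called members matched but not shown, Nkd1 had neither motif, and Frzb and Wnt2b had GC boxes only. Wnt11 had 1 TCF/LEF match and 4 GC boxes in 1 window and neither motif in its other window. Over all members 6 of 48 windows (12.5%) had a TCF/LEF match, in Dkk1, Fzd7, Lef1, Tcf7l2, Wnt11 and Wnt5b, against 14.8% of all 32851 promoters. A GC box was found in 66.7% of member windows, against 32.7% of all. Some genes have several windows, and the share of G and C was not compared with that of all promoters. These are matches of letters and no measure of binding.

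The tetraploid samples differed from each other more than the diploid samples did. The median SD of a member was 0.55 in the tetraploid and 0.28 in the diploid samples, against 0.34 and 0.24 over all genes. It was larger in the tetraploid samples for 44 of 62 members (71%, against 64.7% of all genes). The tetraploid SD was above 1 in 17 members (27.4%, against 6.43% of all genes), and the diploid SD in 3 (4.84%, against 3.58%). Of the 17, Frzb, Sfrp4, Wnt2 and Wnt2b were at or below background on all 6 arrays. Among genes above background on some array, 13 of 45 members (28.9%, against 5.55% of all such genes) had a tetraploid SD above 1. Among the uncalled genes with some value above background, 10 were of this kind, and the sample that stood apart was not always the same.

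Sample 1 of the tetraploid line was low in 2 R-spondin genes and in Dkk3. Rspo2 had 3.26, 7.73 and 7.32 in the tetraploid samples and 8.81, 7.97 and 8.00 in the diploid samples. Rspo3, an R-spondin known from blood vessels and mesenchyme, had 7.16, 9.94 and 9.62 against 9.25, 9.07 and 8.74. In Rspo3, tetraploid samples 2 and 3 thus lay above every diploid sample and tetraploid sample 1 below them, and neither gene passed (limma adjusted p 0.252 and 0.94; 0.0308 for Rspo2 with values raised to background). Dkk3, a secreted member of the Dickkopf family, had 3.31, 9.62 and 9.50 in the tetraploid and 9.75, 10.12 and 10.10 in the diploid samples (limma adjusted p = 0.349). Tetraploid sample 1 lay far below the other 5 samples, which were close together.

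Sample 2 of the tetraploid line was the lowest for Sfrp1 and Lef1, given above, and for Fzd3 and Fzd8. In Fzd3, tetraploid sample 3 was nearly as low, with 7.35, 4.62 and 4.93 in the tetraploid and 7.60, 7.82 and 7.75 in the diploid samples. Fzd8 had 8.11, 6.20 and 8.51 in the tetraploid and 8.69, 8.47 and 8.10 in the diploid samples, so that samples 1 and 3 lay at or near the diploid level. The same sample had the lowest values of Wnt5a, Wnt9a, Wnt16, Fzd7, Lgr5 and Ccn4 and the highest of Sfrp2. Nkd2 and Wnt2b, also called, were lowest in tetraploid sample 1. Dkk2, a DKK family gene, had 7.69, 7.86 and 9.77 against 9.62, 10.35 and 10.10. Its value in tetraploid sample 3 lay inside the diploid range (difference -1.59, limma adjusted p = 0.11). Dkk2 passed without tetraploid sample 3 (adjusted p 0.0113) but in no other fit without 1 sample (0.162 to 0.264). It also passed with values raised to background (0.0362), which left its own values unchanged. Over all 62 members, tetraploid sample 1 was the lowest of its line in 48.4% (34.5% of all genes) and sample 3 the highest in 48.4% (28.8% of all genes). Sample 2 was near its share of all genes, lowest in 35.5% (31.1% of all genes) and highest in 30.6% (33.8%).

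**Figure D3:**
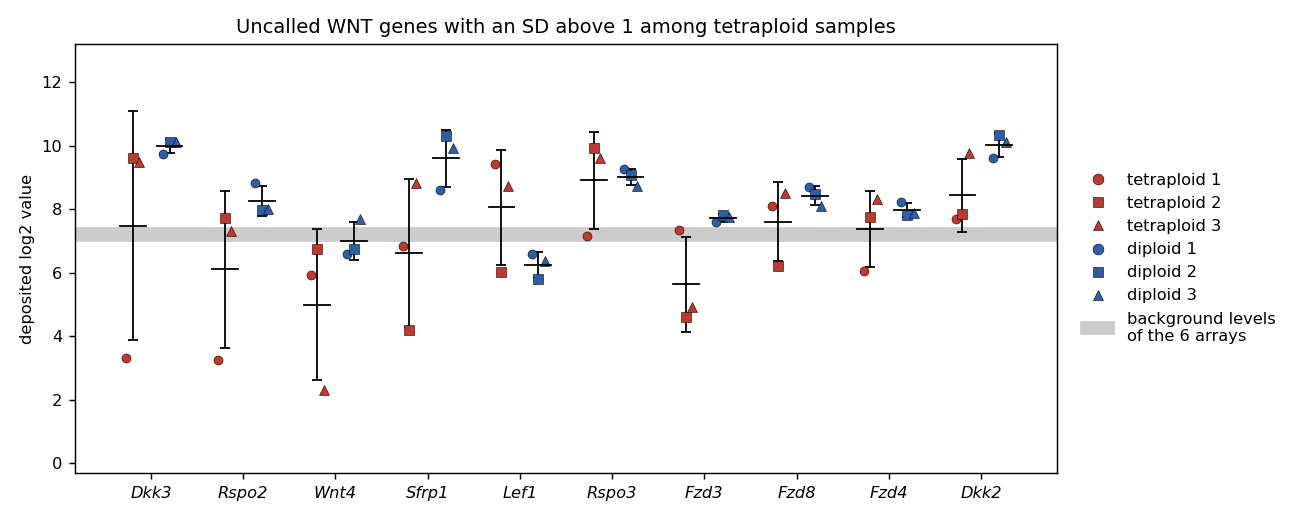
Deposited log2 values (y axis) of the 10 uncalled WNT genes with a tetraploid SD above 1 and some value above background, ordered by that SD, with tetraploid samples in red on the left and diploid samples in blue on the right. Symbols mark samples 1 (circle), 2 (square) and 3 (triangle), and lines and bars give mean and SD. Tetraploid sample 1 is lowest in 5 genes, sample 2 in 4 and sample 3 in 1.

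Further genes of the pathway were followed in 4 lists. The lists were chosen with earlier results of these data known, so their shares of calls are descriptions and no test of a list. Of 24 genes for WNT secretion, glypicans, co-receptors and modulators 7 fell, 2 rose and 15 did not pass (37.5% called, against 13.8% of all genes, median difference -0.17). Cthrc1, a secreted protein gene that favours polarity signalling, had 4.70, 4.33 and 2.42 in the tetraploid and 9.94, 10.12 and 10.09 in the diploid samples. It was at least 6.79-fold lower (limma adjusted p = 0.00156), with no overlap. Glypicans, surface proteoglycans that bind WNT proteins, fell in 3 cases: Gpc3 at least 3.34-fold, Gpc4 2.79-fold and Gpc6 3.41-fold (limma adjusted p 0.00237, 0.0097 and 0.00389). Tspan12, a partner of FZD4, was at least 1.99-fold lower and Ror1, a receptor for WNT5A, at least 1.62-fold (limma adjusted p 0.0115 and 0.0211). Ror2 (difference -0.02) and the other WNT5A receptor gene Ryk (-0.01) did not pass (limma adjusted p 0.971 and 0.982). Mcc, which encodes an intracellular protein, was 4.27-fold higher and Lrp4 at least 1.44-fold higher (limma adjusted p 0.00539 and 0.0152). The genes Wls and Porcn, needed for secretion of all WNT ligands, did not pass (differences -0.42 and 0.65, limma adjusted p 0.176 and 0.0791). Leaving out any 1 diploid sample ended the calls of Ror1 (adjusted p 0.0536 to 0.0801) and Lrp4 (0.0558 to 0.0641). The call of Lrp4 also ended with values raised to background (0.113).

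Of 39 genes of the β-catenin destruction complex and its nuclear partners 3 rose, 2 fell and 34 did not pass (median difference -0.09). The share called, 12.8%, was near the 13.8% of all genes, so the genes named here are single results and not a result about the list. The scaffold Apc (-0.20), the kinase Gsk3b (-0.14) and the kinase Csnk1a1 (-0.09) had small differences (limma adjusted p 0.544, 0.706 and 0.825). Tle2, a co-repressor gene, had 7.49, 8.78 and 8.57 in the tetraploid and 5.90, 5.30 and 6.12 in the diploid samples. It was at least 2.17-fold higher (limma adjusted p = 0.0107), while its relative Tle1 fell (difference -1.11, and -0.83 with values raised to background; limma adjusted p = 0.0203). Tle1 was above background in only 1 of 3 tetraploid samples. Bcl9, a co-activator that binds β-catenin, was 2.38-fold higher and Ctnnd1, the gene of p120-catenin, 1.79-fold lower (limma adjusted p 0.013 and 0.0354). Dact2 was also called as risen but had only 1 value above background (limma adjusted p = 0.0352, and 0.463 with values raised to background). Calls ended without diploid sample 1 or 2 for Bcl9 (adjusted p 0.0564 and 0.0619), without tetraploid sample 2 or any 1 diploid sample for Tle1 (0.0534 to 0.0834), and without any 1 sample for Ctnnd1 (0.0545 to 0.13).

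Of 35 genes of the polarity and calcium branches 4 rose, 1 fell and 30 did not pass (median difference -0.03). Here too the share called, 14.3%, was near that of all genes. The polarity genes Vangl1 (2.25-fold), Scrib (2.18-fold) and Fuz (at least 1.69-fold) were higher, as was the kinase gene Prkca (2.30-fold), with limma adjusted p 0.0221, 0.0134, 0.0108 and 0.0323. Rock1, a kinase downstream of RHOA, was 1.89-fold lower (limma adjusted p = 0.0307). The call of Scrib ended without diploid sample 1 or 2 (adjusted p 0.0605 and 0.0659). Those of Vangl1 and Rock1 ended without tetraploid sample 2 or any 1 diploid sample (0.0635 to 0.0863 and 0.0655 to 0.114), and that of Prkca in every fit without 1 sample except tetraploid sample 2 (0.0568 to 0.121).

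Of 44 genes known as β-catenin targets in various tissues 13 fell, 3 rose and 28 did not pass (36.4% called, against 13.8% of all genes; median difference -0.19). As this list too was chosen with earlier results known, its share is a description and not a result about the list. Many of these genes answer to other pathways as well. Jag1, a Notch ligand gene, had 7.55, 7.98 and 8.18 in the tetraploid and 11.03, 10.73 and 11.03 in the diploid samples, an 8.12-fold lower level (limma adjusted p = 0.001). Ccn5, a relative of Ccn4, was 3.59-fold lower and Ccn1 2.79-fold (limma adjusted p 0.00585 and 0.011). Bmp4, Edn1 and Fgf18, none of them above background in a tetraploid sample, were at least 4.75-fold, 2.82-fold and 1.20-fold lower (limma adjusted p 0.0101, 0.00116 and 0.00714). The receptor gene Met was 7.12-fold higher and the transcription factor gene Sox9 2.96-fold (limma adjusted p 0.00428 and 0.0142). The cell cycle targets Ccnd1 (0.06) and Myc (0.43) did not pass (limma adjusted p 0.924 and 0.351). Fgf18 lost its call with values raised to background (adjusted p 0.251), Ccn1 without diploid sample 2 (0.0502), and Sox9 without diploid sample 1 or 2 (0.0556 and 0.0563).

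**Figure D4:**
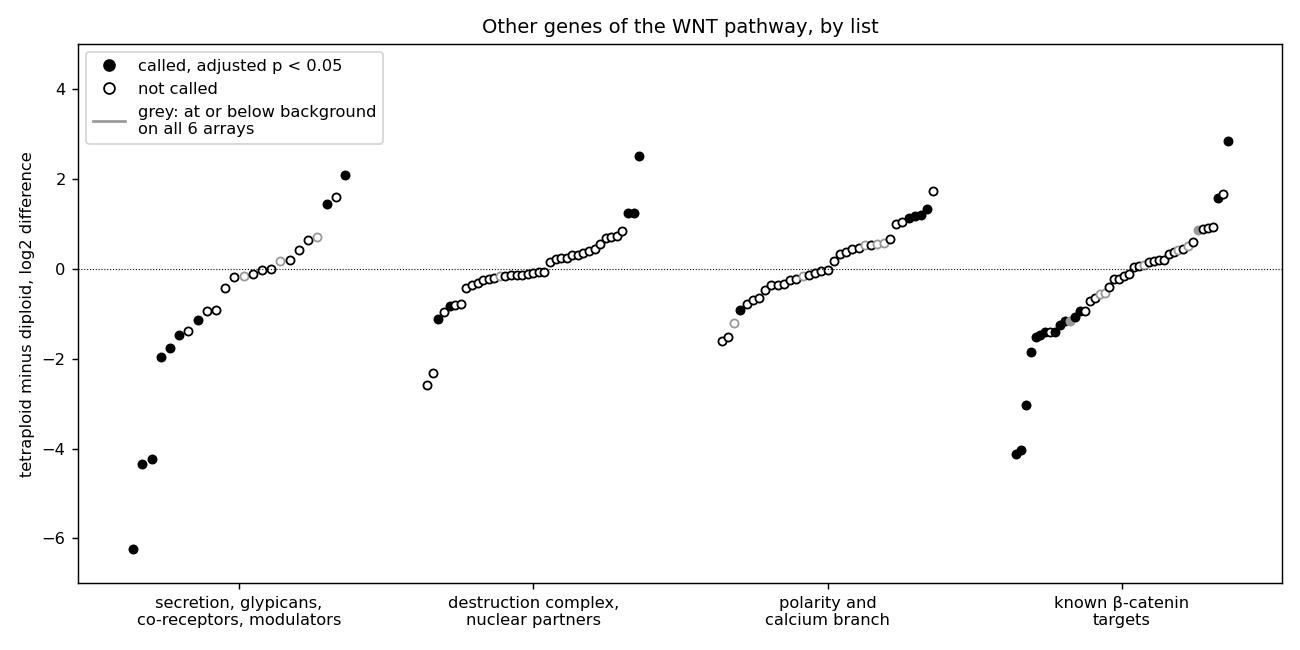
Tetraploid minus diploid log2 difference (y axis) of the genes in 4 pathway lists, sorted within each list. Filled points passed the test at an adjusted p below 0.05, and grey marks genes at or below background on all 6 arrays. Called points lie mostly below 0 in the secretion and receptor list (7 of 9) and in the target list (13 of 16).

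The called members were spread over several chromosomes, and the median difference of their neighbours lay between -0.32 (around Frzb) and 0.25 (around Wnt2b). The 15 measured genes on each side of Wnt5a on chromosome 14 had a median difference of -0.07, those around Fzd7 on chromosome 1 one of -0.05, and those around Wnt9a on chromosome 11 one of -0.01. Around Lgr5 on chromosome 10 the median was 0.06, around Nkd2 on chromosome 13 it was 0.14, and around Ccn4 on chromosome 15 it was 0.04. The neighbours of Wnt16 on chromosome 6 had 0.07 and those of Sfrp2 on chromosome 3 had 0.00 (the median over all genes was 0.07).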

How the data were processed

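RNA from 6 samples, 3 of each line, was depleted of ribosomal RNA and labelled for Affymetrix whole-transcript arrays, per the labels' protocols. The authors deposited log2 values, 1 per probe set and array. The submitters' processing notes name Affymetrix Expression Console, whose version and summarisation method are not stated there. Array medians of the deposited values lay between 7.24 and 7.28, and the values were used unchanged.

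Of 28944 probe sets 21789 carried 1 gene symbol, 1621 several and 5534 none. For each gene the single-symbol probe set of highest mean level stood for it, which gave 19939 genes. The lines were tested with lmFit and eBayes of limma 3.58.1 under R 4.3.3 (two-sided, Benjamini-Hochberg over all genes, call at an adjusted p below 0.05). The fit was also run on simulated data that gave both lines the diploid spread. As the tetraploid samples spread more, that run does not bear on the calls made here. An exact two-sided permutation test of 3 against 3 samples cannot go below 0.1. Arrays give no counts, so their number limits the precision.

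The members and the pathway and marker lists were chosen with earlier results of these data known. Text values follow a rule: every called member with its values, uncalled members above background on all 6 arrays by their difference, all others by name. Of list genes, called ones above background in at least 1 line are named, at most 6 per list and direction by size; uncalled list genes, and uncalled members given by sample, were chosen after their values were seen. The labels number samples 1 to 3 in each line without pairing them. Deviations from the line means correlated at 0.10, 0.03 and -0.05 between equally numbered samples. Between unequally numbered samples the correlations were -0.14 to 0.13, and no block was used. Tcf7 and the listed names Tiki1, Rock2, Runx2, T and Bglap were not analysed here.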

Additional observations from a re-analysis of the deposited data

How the results depend on the processing

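Alternatives were quantile normalization, median centring, a filter at the 25th percentile of mean level, values raised to background, the mean over probe sets, a mean-variance trend, the replicate number as a block, and leaving out each sample in turn. The main test had 11 fallen members, against 6 to 14 without 1 sample and 9 to 16 under the others. It had 2 risen members, against 0 to 1 without 1 sample, 4 with values raised to background, 4 with the trend and 1 with the replicate block. The replicate block gave 1647 calls over all genes against 2758, and ended the calls of Sfrp2, Sfrp4 and Wnt11 (adjusted p 0.0631, 0.0668 and 0.0653). Whether the numbers pair the samples is not stated in the labels. Without 1 sample the calls over all genes numbered 839 to 2522. The median difference of the members was -0.35 to -0.13 without 1 sample and 0.0545 with values raised to background; raising also turned Frzb, Sfrp4, Wnt11 and Wnt2b, all below background, to the common value 0.12. Fzd7, Ccn4, Lgr5, Nkd2, Wnt5a, Wnt9a and Sfrp2 stayed called with raised values. Calls were gained by Dkk2, Fzd6, Kremen1, Lef1, Lgr4, Rspo2, Sfrp1 and Tcf7l1 with raised values, by Fzd3, Fzd5, Kremen1 and Lgr4 with the filter, by Dkk2, Fzd3, Kremen1, Lgr4, Sfrp1, Tcf7l1 and Wnt2 with the trend, by Wnt8a with centring and by Wnt4 with the mean over probe sets.

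In the destruction complex list, 5 calls became 10 with the filter, 12 with raised values, 11 with the trend, 3 with the replicate block and 1 to 7 without 1 sample. In the polarity list, 5 became 8 with raised values, 8 with the trend, 3 with the replicate block and 1 to 7 without 1 sample. In the target list 16 became 8 to 16 without 1 sample, and in the secretion list 9 became 6 to 11. Values near background limit the folds of low genes. Raised values by construction remove differences below background. They also gave 3947 calls over all genes against 2758, and Dkk2, Kremen1, Lgr4 and Tcf7l1 gained calls with their own differences unchanged. The causes of these shifts were not tested.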
